A study of Mus musculus with 6 samples.

Results

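The glutathione, peroxiredoxin and thioredoxin antioxidant genes encode mainly enzymes that remove superoxide, peroxides and reactive electrophiles or keep glutathione and thioredoxin reduced. The rule that picks them uses gene symbols and no measured value, although it was written with earlier results of these data known. It takes the glutathione transferases (Gst, Mgst), glutathione peroxidases (Gpx), peroxiredoxins (Prdx), thioredoxins and thioredoxin-like proteins (Txn), the superoxide dismutases Sod1 to Sod3, and Cat, Nqo1, Gclc, Gclm, Gss, Gsr, Srxn1, Nfe2l2 and Keap1. By symbol it also takes in proteins that are not such enzymes. They include the regulators Nfe2l2 and Keap1, the thioredoxin inhibitor Txnip, Txnl4a and Txnl4b of splicing, and Txndc15, linked to cilia. Below, an antioxidant gene means any gene picked by this rule, whatever its function. This rule found 62 of the 14943 gene symbols in the count table, and 59 of the 62 had enough reads to be tested. Gpx1, a major cytosolic glutathione peroxidase, was not analysed here.

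RNA was sequenced from the peritoneum of wild-type male C57BL/6J mice, 8 weeks old, after a procedure that models encapsulating peritoneal sclerosis, or EPS, a disease of thickened, scarred peritoneum that binds loops of gut together. The EPS group was injected into the abdominal cavity every day with 100 mL/kg of peritoneal dialysis solution (PDS, 4.25%) and 0.3 mL of an agent given only as SHS, and once a week with 4 mg/kg of lipopolysaccharide (LPS), a bacterial cell wall component that provokes inflammation. The control group was given saline in the same volume, and tissue was taken in week 3 from both groups. There were 3 libraries per group, and the labels do not say whether each came from a separate animal, so p-values measure only the spread between these libraries, which may be technical. The groups differ by the PDS, the SHS and the LPS at once, so effects of the separate agents cannot be told apart.

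Glutathione is a small thiol made in a pair of enzymatic steps. Glutathione peroxidases use it to reduce peroxides, glutathione transferases join it to electrophiles, and glutathione reductase recycles it with NADPH. Peroxiredoxins reduce peroxides with a reactive cysteine that thioredoxin restores, and thioredoxin reductase recycles thioredoxin, again with NADPH. Many of these genes are known targets of the transcription factor NRF2 (gene Nfe2l2), which KEAP1 holds in the cytosol and marks for degradation until electrophiles or oxidants modify KEAP1. Adipose tissue, which lies within the peritoneal folds, is known to express several of them at high levels, such as Gpx3.

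The libraries held 15419232 to 17684229 reads counted to genes. Levels are given as counts per 1000000 (CPM) of the library size after scaling by the trimmed mean of M values (TMM), and fold changes were tested with edgeR's quasi-likelihood test over 13980 genes, with a Benjamini-Hochberg adjusted p under 0.05 taken as a call. Libraries of 1 group correlated at 0.93 or more on log2 CPM, and no control correlated with an EPS library above 0.80. Controls 1 and 2 were unusually alike (r = 0.99), and EPS 1 stood apart by its exocrine pancreas transcripts, whose 11 markers summed to 146808 CPM there against 166 and 510 CPM in EPS 2 and EPS 3 and 335 to 3802 CPM in the controls. The mesothelial markers that define the peritoneal lining were present but low in both groups, at 152 to 235 CPM summed over 10 genes in the controls and 59.9 to 395 CPM in EPS, whereas 12 adipocyte markers summed to 33547 to 34275 CPM in the controls.

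Most of the antioxidant genes were lower in EPS. Of the 59 tested, 40 fell, 7 rose and 12 did not pass the test, so that 67.8% were called lower and 11.9% higher. The background was high: of all 13980 genes tested, 59.6% were called in either direction, 30.4% lower and 29.2% higher. The median log2 fold change was -0.88 over the 59 genes and -0.02 over all tested genes. Every EPS library lay below every control library for 42 of the 59 genes and above it for 10, against 35.4% and 33.1% of all tested genes. A call with a change of over 2-fold was made downward for 26 of them and upward for 1, where 16.8% and 17.3% of all tested genes did the same. Without EPS 1 the calls were 7 higher and 39 lower, with controls 1 and 2 averaged as 1 sample they were 6 and 39, and with both changes 7 and 36. With library totals in place of TMM, which shifted the median of all genes by 0.42, 11 were called higher and 27 lower, while 5657 of all genes were then higher and 2182 lower.

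Summed over the 62 genes, the level was 10224, 10246 and 10521 CPM in controls 1 to 3 and 4095, 4190 and 4224 CPM in EPS 1 to 3. The EPS libraries lay within a narrow range, well below the controls. As a share of all reads in the unscaled libraries, these genes took 0.890%, 0.877% and 0.922% in the controls and 0.383%, 0.536% and 0.538% in EPS. In tissue RNA, fewer cells of a type and less RNA per cell cannot be told apart, and this holds for every gene below.

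**Figure D1:**
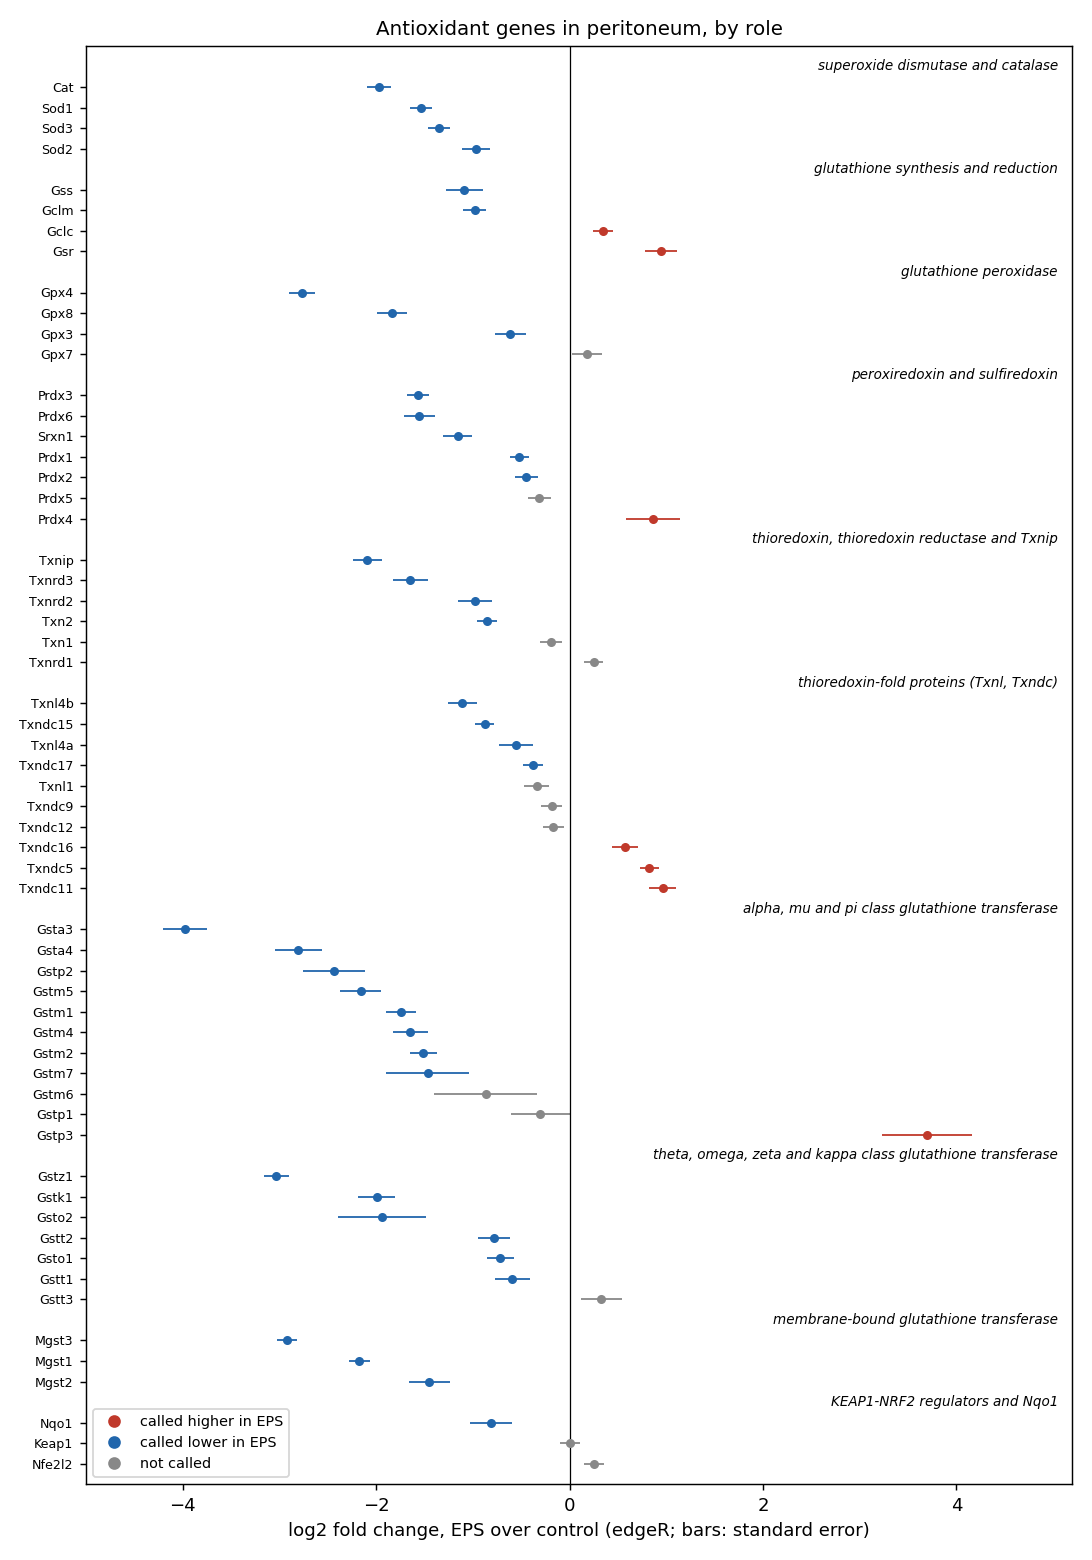
Log2 fold change of EPS over control for the 59 tested antioxidant genes, grouped by role, with bars for the standard error of the edgeR fit (3 libraries per group). Blue points, called lower, fill most roles, the 7 red points are Gclc, Gsr, Prdx4, Txndc5, Txndc11, Txndc16 and Gstp3, and Gsta3 lies farthest to the left at -3.98.

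The promoters are shown here because many of these genes are known NRF2 targets and because some rose while others fell. NRF2 binds, with a small Maf protein, to the antioxidant response element, whose core letters are TGACNNNGC, or GCNNNGTCA on the other strand, with N for any base. The 250 bases before each RefSeq start (GRCm38.p6), of which a gene may have several, could be read for 54 of the 62 genes. Before any of their starts, 11 genes (20.4%) held these letters on either strand, against 13.9% of 11764 genes of the count table and 10.2% of all 32841 windows. The 11 were spread over the calls: 2 of 5 higher, 7 of 35 lower, 2 of 11 not called and 0 of 3 untested genes. The stretches around 6 of these matches follow, written on the gene's own strand with the matched letters in capitals, from genes that differ in their call: Gsta3, Gclm, Prdx1 and Sod1 fell, Txndc11 rose and Txnrd1 was not called.
Gsta3: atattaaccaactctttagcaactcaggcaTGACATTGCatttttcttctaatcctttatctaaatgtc
Gclm: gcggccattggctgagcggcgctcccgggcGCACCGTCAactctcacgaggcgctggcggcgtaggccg
Prdx1: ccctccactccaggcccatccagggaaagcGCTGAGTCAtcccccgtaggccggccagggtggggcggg
Sod1: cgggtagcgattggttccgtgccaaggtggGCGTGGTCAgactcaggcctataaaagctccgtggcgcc
Txndc11: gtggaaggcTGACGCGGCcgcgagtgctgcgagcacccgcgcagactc
Txnrd1: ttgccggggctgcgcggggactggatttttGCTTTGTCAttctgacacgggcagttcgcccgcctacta
They lie at chr1:21240434-21240502 for Gsta3, chr3:122245393-122245461 for Gclm, chr4:116685436-116685504 for Prdx1, chr16:90220676-90220744 for Sod1, chr16:11134735-11134782 for Txndc11 and chr10:82859084-82859152 for Txnrd1, in GRCm38 (mm10). The match begins 121 bases before the start in Gsta3, 134 in Gclm, 133 in Prdx1, 56 in Sod1, 241 in Txndc11 and 92 in Txnrd1. Txndc11 had a match before 1 of 2 starts and Txnrd1 before 1 of 3. The Txnrd1 start used lies inside the gene (82833951 to 82897712). The Prdx1 match, read on its own strand, also holds TGACTCA, the letters of an AP-1 site, a motif that overlaps this one. A match is a description of letters and not evidence of binding, and genes without one in this window may hold it elsewhere.

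Neither NRF2 nor KEAP1 transcripts passed the test, and Nqo1, the quinone reductase often used as a readout of NRF2, was lower. Nfe2l2 (chromosome 2, 75675513 to 75704641) stood at 119, 126 and 114 CPM in controls 1 to 3 and at 154, 146 and 127 CPM in EPS 1 to 3. All 3 EPS libraries lay above the controls, but by little: the log2 fold change was 0.25 ± 0.11 (SE) with an edgeR adjusted p of 0.0719. That call depended on the scaling. Nfe2l2 was called higher with RLE size factors (0.30, adjusted p = 0.0319), upper-quartile factors (0.29, adjusted p = 0.0397), DESeq2 (0.30, adjusted p = 0.0161) and library totals (0.66, adjusted p = 0.00747). With all libraries, TMM was thus the only scaling without a call. Nfe2l2 was also called higher with TMM without EPS 3 (0.32, adjusted p = 0.0183). Keap1 was at 54.6, 53.9 and 51.0 CPM in the controls and 49.8, 50.5 and 59.7 CPM in EPS, so the groups overlapped (adjusted p = 0.970). Nqo1 was low throughout, with 7.93, 7.60 and 6.55 CPM in the controls and 3.53, 4.51 and 4.46 CPM in EPS. It fell 1.76-fold (log2 fold change -0.82 ± 0.22, adjusted p = 0.0127) and every EPS library lay below every control. Without control 1 the adjusted p was 0.0532, and with library totals it was 0.320.

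The enzymes of glutathione synthesis and reduction split in direction, with 2 of 4 called higher and 2 lower. Of all tested genes, 29.2% were called higher and 30.4% lower. Gclc, the catalytic subunit of glutamate-cysteine ligase, the rate-limiting enzyme, and Gsr, glutathione reductase, rose, whereas Gclm, the ligase's modifier subunit, and Gss, which adds glycine in the last step, fell. Gclc was at 40.2, 47.2 and 41.9 CPM in the controls and 55.6, 57.8 and 51.0 CPM in EPS. Its 1.27-fold rise was small (log2 fold change 0.35 ± 0.11, adjusted p = 0.0216), and the call was lost without control 1 (adjusted p = 0.0982), control 3 (0.0776) or EPS 2 (0.0583). Gclm moved the other way, from 54.4, 61.0 and 59.5 CPM to 30.5, 32.7 and 25.3 CPM, a 1.98-fold fall (adjusted p = 2.46e-04). Gsr was at 60.6, 54.6 and 56.1 CPM in the controls and at 103, 87.8 and 139 CPM in EPS, with more spread among the EPS libraries than among the controls. Its rise was 1.93-fold (log2 fold change 0.95 ± 0.17, adjusted p = 0.00163). Gss stood at 20.3, 18.4 and 18.1 CPM in the controls and 7.14, 8.22 and 11.2 CPM in EPS. It fell 2.13-fold (adjusted p = 0.00160), a call lost with library totals (adjusted p = 0.0588). Antisense genes and the protein-coding Acss2 (6.68% of exon bases) overlap the exons of Gss on the opposite strand. Without strand, their reads could be counted with Gss.

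Within each library, counts of these subunits can be compared without any scaling between libraries. The ratio of Gclc to Gclm reads was 0.739 ± 0.0353 (SD, n = 3) in the controls and 1.87 ± 0.133 in EPS. Gsr to Gss went from 3.02 ± 0.0765 to 12.5 ± 1.90. For both pairs the groups did not overlap. The pairs were chosen after the values were seen and are given as a description.

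All 4 enzymes of the first line, the superoxide dismutases and catalase, fell, against 30.4% of all tested genes. Their direction held with library totals. Cat, the peroxisomal enzyme that splits hydrogen peroxide (chromosome 2, 103453849 to 103485160), was at 926, 966 and 932 CPM in the controls and 257, 246 and 218 CPM in EPS. It fell 3.91-fold (log2 fold change -1.97 ± 0.12, adjusted p = 7.09e-06), with a gap between the groups far wider than the spread within either. Sod1, the cytosolic copper-zinc dismutase, went from 349.6, 360.3 and 319.9 CPM to 105, 122 and 128 CPM, a 2.90-fold fall (adjusted p = 1.71e-05). Sod3, the secreted form, was at 382, 446 and 389 CPM in the controls and 149, 158 and 170.1 CPM in EPS, 2.55-fold lower (adjusted p = 2.84e-05). Sod2, the mitochondrial manganese dismutase, had 187, 187 and 180.3 CPM in the controls and 113, 75.8 and 95.7 CPM in EPS. Its fall of 1.95-fold (adjusted p = 6.74e-04) was the smallest of the 4.

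Among the glutathione peroxidases, 3 of the 4 tested fell (75%, against 30.4% of all tested genes). Gpx4, which reduces lipid hydroperoxides in membranes and is known as the main guard against ferroptosis, changed most (chromosome 10, 80047166 to 80056439). It was at 1369, 1412 and 1326 CPM in the controls and 183, 193 and 227 CPM in EPS. The log2 fold change was -2.77 ± 0.14, a 6.81-fold fall (adjusted p = 3.03e-06). Gpx8, a membrane protein of the endoplasmic reticulum (ER), went from 71.8, 71.2 and 68.4 CPM to 19.3, 24.2 and 15.7 CPM, 3.57-fold lower (adjusted p = 3.25e-05). Gpx3, the secreted plasma enzyme, varied more, with 659, 777 and 909 CPM in the controls and 468, 577 and 486 CPM in EPS. Its 1.53-fold fall (adjusted p = 0.0103) did not pass with library totals (adjusted p = 0.568), nor without EPS 1 when controls 1 and 2 were averaged (0.0521). Gpx7, the other ER member, was at 17.8 ± 0.884 CPM in the controls and 20.2 ± 3.29 CPM in EPS (SD, n = 3; adjusted p = 0.331). The ratio of Gpx3 to Gpx4 reads went from 0.572 ± 0.104 to 2.56 ± 0.424, with no overlap between groups.

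Per kilobase of exon, which allows levels of different genes to be compared, Gpx4 was the most abundant of the 62 genes in the controls at 794 ± 25.1 RPKM (SD, n = 3), reads per kilobase divided into the same scaled library sizes. Gpx3 followed at 431 ± 69.0 RPKM, then Gstm1 at 377 ± 16.2, Cat at 360.4 ± 8.28, Txnip at 348 ± 27.0 and Mgst1 at 331 ± 20.3. From Gpx3 to Mgst1, neighbours in this order differed by less than the sum of their SDs. In EPS, Gpx3 led with 282 ± 32.3 RPKM, ahead of Gpx4 at 117 ± 13.2 and Gstm1 at 112 ± 22.3, of which the last pair did not differ beyond their spread. Cat, Txnip and Mgst1 followed at 92.1 ± 7.77, 81.5 ± 11.6 and 73.5 ± 1.15 RPKM.

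**Figure D2:**
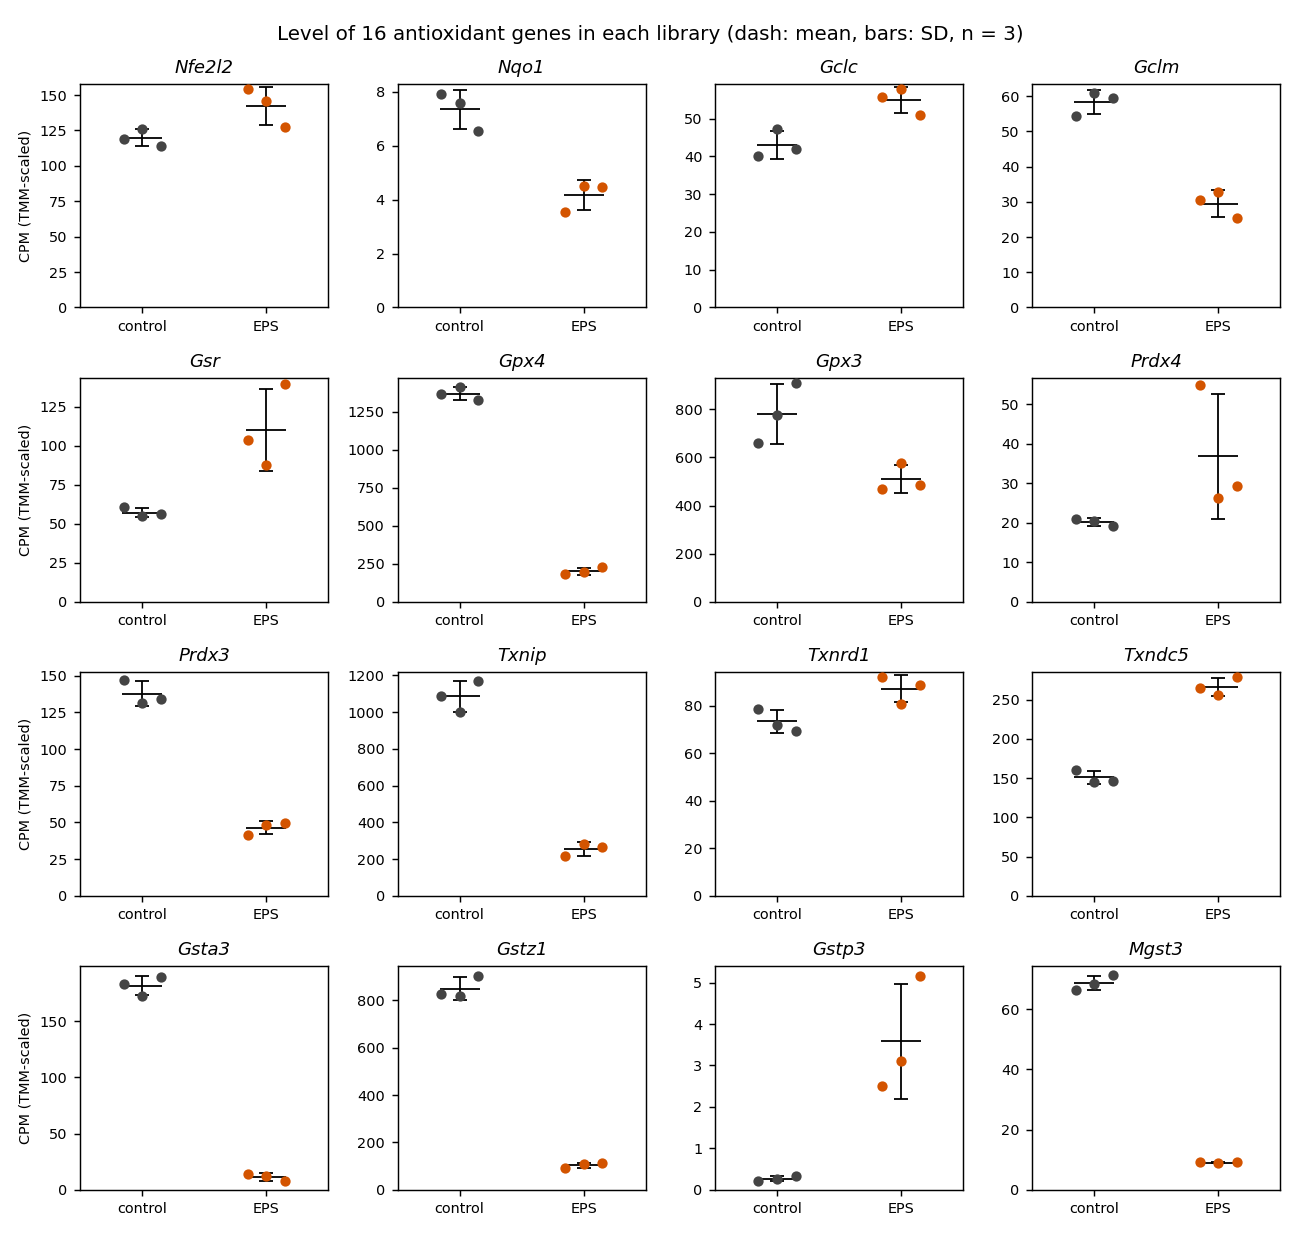
CPM (TMM-scaled) of 16 antioxidant genes in each library, controls in grey and EPS in orange, with the mean and SD of 3 libraries. Gpx4, Txnip, Gstz1, Gsta3 and Mgst3 show EPS far below the controls with no overlap, Gsr, Txndc5 and Gstp3 show EPS above, and for Prdx4 the high EPS library is EPS 1 at 54.9 CPM.

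Of the peroxiredoxins and the sulfiredoxin Srxn1, 5 fell (71.4%), 1 rose (14.3%) and Prdx5 did not pass. Of all tested genes, 30.4% were called lower and 29.2% higher. Prdx3, the mitochondrial peroxiredoxin, was at 147, 131 and 134 CPM in the controls and 41.4, 47.9 and 49.9 CPM in EPS, 2.97-fold lower (log2 fold change -1.57 ± 0.11, adjusted p = 1.24e-05). Prdx6, which also acts on phospholipid peroxides, went from 279, 262 and 312 CPM to 87.2, 83.7 and 119.6 CPM, 2.93-fold lower (adjusted p = 7.77e-05). Srxn1, which repairs overoxidised peroxiredoxins, was at 72.4, 67.1 and 63.8 CPM in the controls and 23.97, 36.2 and 30.7 CPM in EPS. It fell 2.23-fold (adjusted p = 3.42e-04), so Srxn1 moved in the same direction as most of the peroxiredoxins it repairs. The abundant cytosolic Prdx1 changed less, from 314, 290.2 and 309 CPM to 208, 202 and 226 CPM, 1.44-fold lower (adjusted p = 0.00241). Prdx2, also cytosolic, fell 1.36-fold (adjusted p = 0.0120). Prdx5, at 139.9 ± 3.17 CPM in the controls and 113 ± 16.2 CPM in EPS, had an adjusted p of 0.0551, and 0.0417 without EPS 3. With library totals, Prdx1 and Prdx2 kept the sign but lost the call (adjusted p = 0.707 and 0.908).

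Prdx4, the peroxiredoxin of the ER lumen, was the member of its family that rose (chromosome X, 155323918 to 155340754). It was at 20.9, 20.5 and 19.0 CPM in the controls and 54.9, 26.2 and 29.2 CPM in EPS 1 to 3. EPS 1, the library with the pancreas transcripts, was the high one. The log2 fold change was 0.86 ± 0.28 (adjusted p = 0.0283) with EPS 1 and 0.53 without it (adjusted p = 0.00958), while leaving out any control raised the adjusted p to between 0.0743 and 0.0909. The ratio of Prdx4 to Prdx3 reads was 0.142, 0.156 and 0.142 in the controls and 1.33, 0.547 and 0.585 in EPS. The part of the pancreas transcripts in the value of EPS 1 was not tested.

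In the thioredoxin system proper, counting Txnip, 4 of 6 genes fell (66.7%, against 30.4% of all tested genes) and none rose. Txnip, which binds and inhibits thioredoxin and limits glucose uptake (chromosome 3, 96557957 to 96561883), was at 1086, 1003 and 1171 CPM in the controls and 214, 283 and 267 CPM in EPS. It fell 4.27-fold (log2 fold change -2.09 ± 0.15, adjusted p = 1.41e-05), although an antisense gene overlaps 19.4% of its exon bases. Txnrd3, a reductase best known from testis, went from 25.1, 24.5 and 23.9 CPM to 6.31, 9.77 and 7.28 CPM, 3.13-fold lower (adjusted p = 1.34e-04). The mitochondrial thioredoxin Txn2 was at 133, 135 and 149 CPM in the controls and 75.7, 71.3 and 83.5 CPM in EPS, 1.81-fold lower (adjusted p = 1.98e-04). Its reductase Txnrd2 had 22.7, 22.3 and 20.6 CPM in the controls and 10.3, 9.30 and 13.7 CPM in EPS, 1.97-fold lower (adjusted p = 0.00168). With library totals Txn2 and Txnrd2 stayed lower but were not called (adjusted p = 0.0769 and 0.0714).

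The cytosolic pair did not pass. Txn1 was at 57.6 ± 6.16 CPM in the controls and 50.4 ± 2.95 CPM in EPS (adjusted p = 0.167), and the groups overlapped. Txnrd1, a known NRF2 target, was at 73.5 ± 4.78 and 87.3 ± 5.82 CPM (SD, n = 3). All EPS libraries lay above the controls, with a log2 fold change of 0.25 ± 0.10 and an adjusted p of 0.0630. Like Nfe2l2, Txnrd1 was called higher with RLE size factors (adjusted p = 0.0357), upper-quartile factors (0.0338), DESeq2 (0.0297) and library totals (0.00761), and without EPS 2 (0.0399). The ratio of Txnrd1 to Txnrd2 reads was 3.36 ± 0.122 in the controls and 8.06 ± 1.37 in EPS. The ratio of Txnrd1 to Txnip reads went from 0.0680 ± 0.00743 to 0.350 ± 0.0744.

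**Figure D3:**
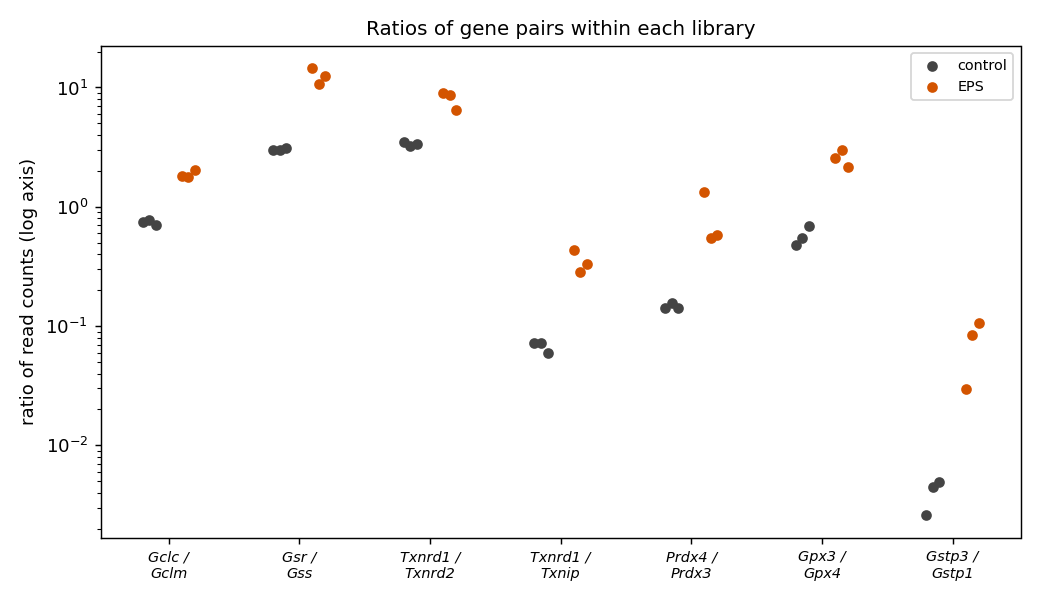
Ratio of read counts of 7 gene pairs within each library, on a log axis, with 3 control and 3 EPS libraries per pair. In every pair the EPS ratios lie above the control ratios, from 8.06 against 3.36 for Txnrd1 over Txnrd2, the pair closest together, to 0.0735 against 0.00399 for Gstp3 over Gstp1, the pair farthest apart (means); the pairs were chosen after the values were seen.

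The thioredoxin-fold proteins named Txndc and Txnl moved in both directions, with 3 rising, 4 falling and 3 not called of 10. These are 30% higher and 40% lower, against 29.2% and 30.4% of all tested genes. The 3 that rose, Txndc5, Txndc11 and Txndc16, are proteins of the ER, where the thioredoxin fold serves disulfide formation in newly made proteins. Txndc5 (chromosome 13, 38500079 to 38528824), a protein disulfide isomerase, was at 161, 145 and 146 CPM in the controls and 265, 256 and 279 CPM in EPS. It rose 1.77-fold (log2 fold change 0.82 ± 0.10, adjusted p = 1.77e-04), and EPS 1 lay between EPS 2 and EPS 3. On the opposite strand, an antisense gene overlaps 6.92% of its exon bases and the protein-coding Bmp6 4.99%. Txndc11 went from 43.9, 36.3 and 38.8 CPM to 91.3, 66.0 and 74.8 CPM, 1.95-fold higher (adjusted p = 5.81e-04). Txndc16 was at 35.3, 30.4 and 30.4 CPM in the controls and 46.7, 55.3 and 41.0 CPM in EPS, 1.49-fold higher (adjusted p = 0.00709). These 3 genes remained called higher with library totals and with any 1 library left out.

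Of this group, 4 fell. Txndc15, a membrane protein linked to cilia, was at 50.4, 54.2 and 55.0 CPM in the controls and 27.9, 28.3 and 30.5 CPM in EPS, 1.84-fold lower (adjusted p = 1.19e-04). Txnl4b, a splicing-related protein, went from 28.9, 29.8 and 26.1 CPM to 11.02, 14.4 and 13.8 CPM, 2.16-fold lower (adjusted p = 3.71e-04). The spliceosome protein Txnl4a fell 1.47-fold (adjusted p = 0.0251) and Txndc17, a cytosolic thioredoxin-related protein, 1.30-fold (adjusted p = 0.0130), and both calls depended on single libraries. Txnl4a lost its call without control 3 (adjusted p = 0.0933), EPS 1 (0.0812) or EPS 2 (0.0705), and Txndc17 without control 2 (0.0552), control 3 (0.0543) or EPS 1 (0.0701). With library totals Txnl4b alone of these 4 was called lower, and Txndc17 changed sign (0.05). Txndc9, and Txndc12 of the ER, had log2 fold changes of -0.19 and -0.17 and did not pass. Txnl1, a partner of the proteasome, lay at the threshold: all EPS libraries were below all controls, with a log2 fold change of -0.34 ± 0.13 and an adjusted p of 0.0501. It was called lower without a filter (adjusted p = 0.0487), with limma-voom (0.0422), with a replicate block (0.0476) and without EPS 1 (0.00988), and had the opposite sign with library totals (0.06, not called).

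The cytosolic glutathione transferases of the alpha, mu and pi classes held the largest changes in both directions. Of 13 genes, 11 were tested, 8 fell (72.7%), 1 rose (9.09%) and 2 were not called, against 30.4% lower and 29.2% higher of all tested genes. No sign of a called gene changed with library totals. Gsta3 (chromosome 1, 21240589 to 21265661), an alpha class enzyme, was at 183, 172 and 189 CPM in the controls and 14.4, 12.4 and 7.83 CPM in EPS. It fell 15.8-fold (log2 fold change -3.98 ± 0.22, adjusted p = 6.04e-06), the largest fall among the 59 genes. Gsta4, which detoxifies the lipid peroxidation product hydroxynonenal, went from 29.9, 28.3 and 35.7 CPM to 5.13, 5.40 and 2.92 CPM, 6.98-fold lower (adjusted p = 3.70e-05). Gstm1, the most abundant transferase of the controls per kilobase of exon, was at 531, 556 and 579 CPM in the controls and 145, 203 and 148 CPM in EPS, 3.36-fold lower (adjusted p = 3.75e-05). Gstm2 went from 187, 185 and 189.6 CPM to 60.3, 79.7 and 56.5 CPM, 2.86-fold lower (adjusted p = 4.81e-05). In each of these genes the EPS libraries lay together, well below the controls.

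The mu class genes sit in 1 cluster on chromosome 3 (107895821 to 108044894), in which 5 of 7 genes fell, against 30.4% of all tested genes. Gstm5 was at 15.1, 13.0 and 16.5 CPM in the controls and 2.56, 3.66 and 3.67 CPM in EPS, 4.47-fold lower (adjusted p = 6.80e-05). Gstm4 fell 3.13-fold (adjusted p = 1.23e-04) and Gstm7 2.77-fold (adjusted p = 0.0204), the last a call lost without control 1 (adjusted p = 0.0650) or control 3 (0.0573). Gstm6, at 2.13 ± 0.715 and 1.17 ± 0.659 CPM, did not pass. Genes of this cluster are near copies of each other, and no source used here states how reads matching several of them were counted, so the division of reads among them is uncertain.

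The pi class genes, 3 related genes side by side on chromosome 19 (4035407 to 4059569), differed in their changes. As for the mu cluster, how reads matching several of them were counted is not stated, so the division of reads among them is uncertain. Gstp1, the main form, was at 82.8, 59.5 and 66.9 CPM in the controls and 84.7, 36.6 and 48.4 CPM in EPS 1 to 3. The groups overlapped through EPS 1, and the adjusted p was 0.418 with that library and 0.0181 without it (log2 fold change -0.64). Gstp2 went from 8.93, 7.47 and 5.82 CPM to 1.66, 1.504 and 0.941 CPM, 5.41-fold lower (adjusted p = 3.29e-04). Gstp3 was nearly silent in the controls, at 0.214, 0.264 and 0.331 CPM, which is 3 to 5 reads per library, and was at 2.49, 3.10 and 5.15 CPM in EPS. The log2 fold change was 3.69 ± 0.46 (adjusted p = 2.51e-04), the largest rise among the 59 genes, though its size rests on few control reads. Gstp3 reads were 0.00399 ± 0.00124 of Gstp1 reads in the controls and 0.0735 ± 0.0396 in EPS.

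The smaller cytosolic and mitochondrial classes fell in 6 of 7 genes (85.7%, against 30.4% of all tested genes). Gstz1, the zeta class enzyme that is also maleylacetoacetate isomerase of tyrosine breakdown (chromosome 12, 87147165 to 87164723), was at 825, 816 and 903 CPM in the controls and 91.8, 107 and 112 CPM in EPS. It fell 8.18-fold (log2 fold change -3.03 ± 0.13, adjusted p = 2.19e-06), and Pomt2, on the opposite strand, overlaps 9.14% of its exon bases. Gstk1, the kappa class enzyme of mitochondria and peroxisomes, went from 32.0, 28.2 and 34.9 CPM to 10.1, 6.67 and 7.13 CPM, 3.99-fold lower (adjusted p = 6.00e-05). Gsto1, an omega class enzyme that reduces dehydroascorbate, was at 68.8, 64.7 and 54.2 CPM in the controls and 36.5, 33.9 and 43.8 CPM in EPS, 1.64-fold lower (adjusted p = 0.00242). Its low-level neighbour Gsto2 fell 3.84-fold from 1.89 ± 0.789 CPM (adjusted p = 0.00665). For both omega genes all EPS libraries lay below all controls, as they did for 35.4% of all tested genes. Of the theta class, Gstt2 had 27.7, 24.4 and 22.1 CPM in the controls and 16.2, 15.0 and 12.04 CPM in EPS, 1.72-fold lower (adjusted p = 0.00380). Gstt1 fell 1.51-fold (adjusted p = 0.0206), lost without control 3 (adjusted p = 0.0731), EPS 1 (0.0867) or EPS 2 (0.0578), and Gstt3 was at 6.02 ± 0.265 and 7.57 ± 1.33 CPM and not called. With library totals Gsto1, Gstt1 and Gstt2 kept their sign without a call (adjusted p = 0.253, 0.598 and 0.141), and Gstt3 was called higher (adjusted p = 0.0277).

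The membrane-bound transferases, which also reduce lipid hydroperoxides, fell in all 3 members, against 30.4% of all tested genes. They also fell with library totals. Mgst1 was at 713, 654 and 634 CPM in the controls and 149, 145 and 149 CPM in EPS, 4.51-fold lower (log2 fold change -2.17 ± 0.11, adjusted p = 3.02e-06). Mgst3 (chromosome 1, 167371966 to 167393841) went from 66.5, 68.5 and 71.2 CPM to 9.15, 8.88 and 9.16 CPM. Its 7.58-fold fall (log2 fold change -2.92 ± 0.10) had the lowest adjusted p of the 59 genes (1.66e-06). The libraries of each group were nearly identical. Mgst2, which can make leukotriene C, was at 30.6, 33.6 and 27.8 CPM in the controls and 7.83, 11.7 and 14.0 CPM in EPS, 2.73-fold lower (adjusted p = 6.21e-04).

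Together, 9 genes fell more than 4-fold: Gsta3, Gstz1, Mgst3, Gsta4, Gpx4, Gstp2, Mgst1, Gstm5 and Txnip. Of these, 7 are transferases, and the others are Gpx4 and Txnip. Transferases are also a large part of the 59 tested genes, with 11, 7 and 3 in the groups above. The share of all tested genes that fell this far was not computed, while 16.8% were called and over 2-fold lower. The summed level of the Txndc and Txnl genes was 539 to 552 CPM in the controls and 609.5 to 648 CPM in EPS, so that, with the lower total in EPS, their share of the summed CPM of the 62 genes was 5.29% and 15.1%. For glutathione synthesis and reduction the sums were 175 to 181 CPM and 187 to 227 CPM, and the shares 1.72% and 4.87%. The share of the theta, omega, zeta and kappa transferases went from 9.89% to 4.88%, and that of the membrane-bound transferases from 7.42% to 4.03%.

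The 3 untested genes had few reads. Gpx2, the peroxidase of gut epithelium, had 11 reads in EPS 1 and 0 in the other 5 libraries. Gsta2 had 46 reads in EPS 2 and 0 elsewhere, where a count of 0 allows up to 0.214 CPM (3 reads in the library of smallest scaled size). Gstm3 had 4, 8 and 2 reads in the controls and 5, 0 and 0 in EPS. Such intervals and floors cover counting error only.

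Around these genes, 6 pathway lists with 85 measured genes were less one-sided: 20 rose, 34 fell and 31 did not pass, with a median log2 fold change of -0.24. These are 23.5% higher and 40% lower, against 29.2% and 30.4% of all tested genes. Both glutathione reductase and thioredoxin reductase depend on NADPH, and the list of NADPH-supplying enzymes fell in 8 of 12 and rose in 1. This list also holds Tkt, Taldo1 and Pgls, pentose phosphate pathway enzymes that make no NADPH themselves. Tkt and Taldo1 are among the 8 that fell. Tkt, transketolase of the pentose phosphate pathway, was at 3836 ± 307 CPM in the controls and 419 ± 129 CPM in EPS, 9.15-fold lower (adjusted p = 2.37e-05). G6pdx, which makes NADPH in the first step of that pathway, fell 3.82-fold from 469.8 ± 24.2 CPM (adjusted p = 3.13e-05), and the folate enzyme Aldh1l1 4.54-fold (adjusted p = 6.77e-06). Mthfd2, the mitochondrial folate enzyme, was the one that rose, from 5.00, 5.55 and 6.61 CPM to 65.1, 52.1 and 56.6 CPM, 10.1-fold (adjusted p = 2.79e-06). With library totals, 28 of the 85 genes were called higher and 18 lower, while 40.5% of all tested genes were then higher and 15.6% lower.

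In glutathione supply and turnover, 3 of 14 genes rose and 3 fell, 21.4% each, where 29.2% and 30.4% of all tested genes did so. Slc7a11, the cystine transporter that feeds glutathione synthesis, had 8, 0 and 0 reads in controls 1 to 3 and 177, 136 and 155 reads in EPS 1 to 3. The rise was called (adjusted p = 0.00172), but the size of its log2 fold change, 5.52, depends on the reads of control 1 and was 10.24 without that library, when all controls are at 0. Anpep, an aminopeptidase that completes extracellular glutathione breakdown, rose 2.46-fold (adjusted p = 0.00150), highest in EPS 1 at 244 CPM against 159.6 and 134 CPM in EPS 2 and EPS 3. Oplah, which recycles oxoproline to glutamate, fell 3.64-fold (adjusted p = 2.00e-05), and the dipeptidase Dpep1 2.64-fold (adjusted p = 4.73e-04).

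Of 16 other known NRF2 targets, 4 rose (25%) and 5 fell (31.25%), near the 29.2% and 30.4% of all tested genes. Hmox1, heme oxygenase, which degrades heme, rose from 39.6, 40.1 and 34.1 CPM to 188, 129 and 169 CPM, 4.27-fold (log2 fold change 2.09 ± 0.16, adjusted p = 1.70e-05). The export pump Abcc3 rose 3.02-fold (adjusted p = 6.44e-05), while aldehyde oxidase Aox1 fell 7.57-fold from 120.1 ± 1.81 CPM (adjusted p = 3.86e-06). Hmox1 and Nqo1, both used as NRF2 readouts, were thus called in opposite directions in the same libraries.

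Of 13 partners and rivals of KEAP1 and NRF2, 3 rose (23.1%) and 5 fell (38.5%), against 29.2% and 30.4% of all tested genes. Bach1, a repressor that competes with NRF2 for its sites and is known to silence Hmox1, rose 2.13-fold from 26.1 ± 1.12 to 55.8 ± 3.75 CPM (adjusted p = 4.53e-05). Bach2, its relative in lymphocytes, rose 5.82-fold from 6.12 ± 1.90 to 35.7 ± 3.42 CPM (adjusted p = 4.53e-05). The related factor Nfe2l1 fell 2.00-fold from 691 ± 13.8 to 345 ± 23.4 CPM (adjusted p = 1.33e-04; 0.0510 with library totals).

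Glutaredoxins, methionine sulfoxide reductases and sestrins fell in 7 of 11 (63.6%) and rose in 3 (27.3%), against 30.4% and 29.2% of all tested genes. The mitochondrial iron-sulfur protein Glrx5 was 3.11-fold lower (adjusted p = 9.76e-06) and the repair enzyme Msra 2.60-fold (adjusted p = 4.66e-05), whereas Sesn3 rose 3.21-fold (adjusted p = 2.04e-05). Genes for selenoprotein synthesis and other selenoproteins were listed because Gpx3, Gpx4 and the thioredoxin reductases contain selenocysteine. Of these 19 genes, 6 were higher and 6 lower, 31.6% each, near the shares of all tested genes. Lrp8, a receptor for selenoprotein P, rose from 0.857, 2.05 and 1.32 CPM to 13.9, 17.1 and 18.1 CPM (log2 fold change 3.52 ± 0.31, adjusted p = 3.72e-05). Selenow fell 1.77-fold (adjusted p = 6.01e-04), and Pstk, a kinase that prepares the selenocysteine transfer RNA, 2.12-fold (adjusted p = 0.00209), but neither of these was called with library totals (adjusted p = 0.137 and 0.0558).

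**Figure D4:**
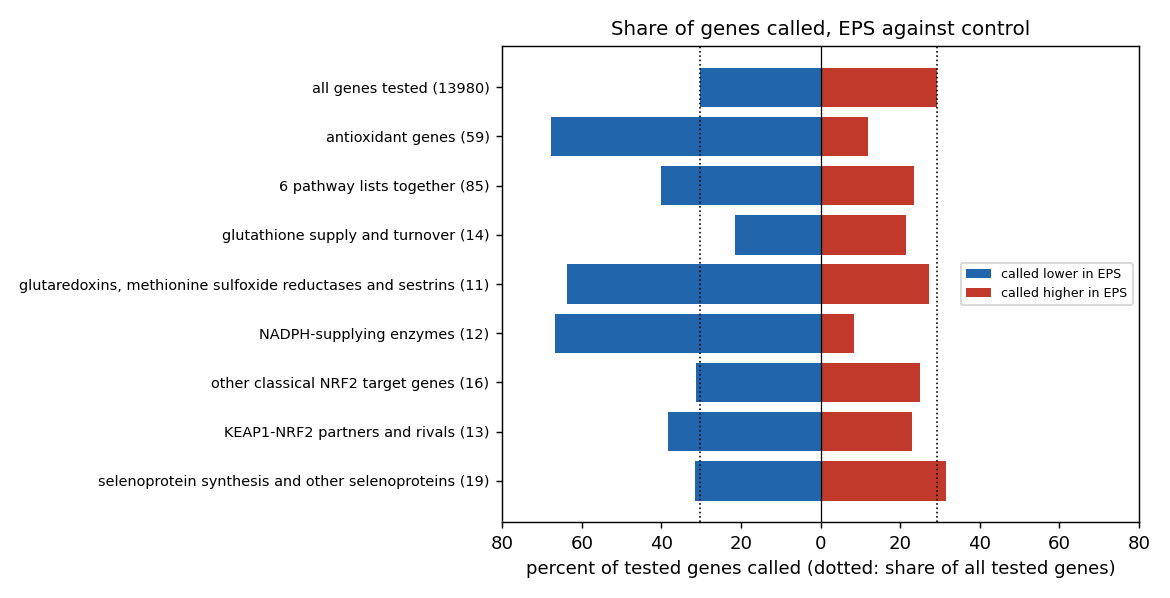
Percentage of tested genes called lower (blue, left) and higher (red, right) in EPS, for all genes, the 59 antioxidant genes and the 6 pathway lists, with the number tested in brackets and dotted lines at the shares of all tested genes. The antioxidant genes reach 67.8% to the left and 11.9% to the right, and of the pathway lists the NADPH-supplying enzymes come closest with 66.7% and 8.33%. That list also holds Tkt, Taldo1 and Pgls, which make no NADPH themselves.

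Markers of several cell types moved in the same libraries, in which 30.4% of all tested genes were called lower and 29.2% higher. All 12 adipocyte markers fell, their sum going from 33547 to 34275 CPM in the controls to 3089 to 4871 CPM in EPS, with a median log2 fold change of -3.32 and no marker at 0 in either group. All 8 markers of blood endothelium fell as well, from 2062 to 2131 CPM to 843 to 1077 CPM. In the other direction, 10 of 12 macrophage markers rose and 1 fell (897 to 1043 CPM against 3985 to 4794 CPM). All 12 neutrophil markers rose, from 6.01 to 8.20 CPM to 646 to 2230 CPM, with Ly6g at 0 in the controls. The 9 lymphocyte markers measured rose too, from 9.78 to 14.2 CPM to 753 to 1145 CPM, and 5 of 8 fibroblast markers rose (2472 to 2562 CPM against 4384 to 7904 CPM). The mesothelial and pancreas sums, given above, overlapped between the groups. The part of these shifts in the fall or rise of any antioxidant gene was not tested.

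**Figure D5:**
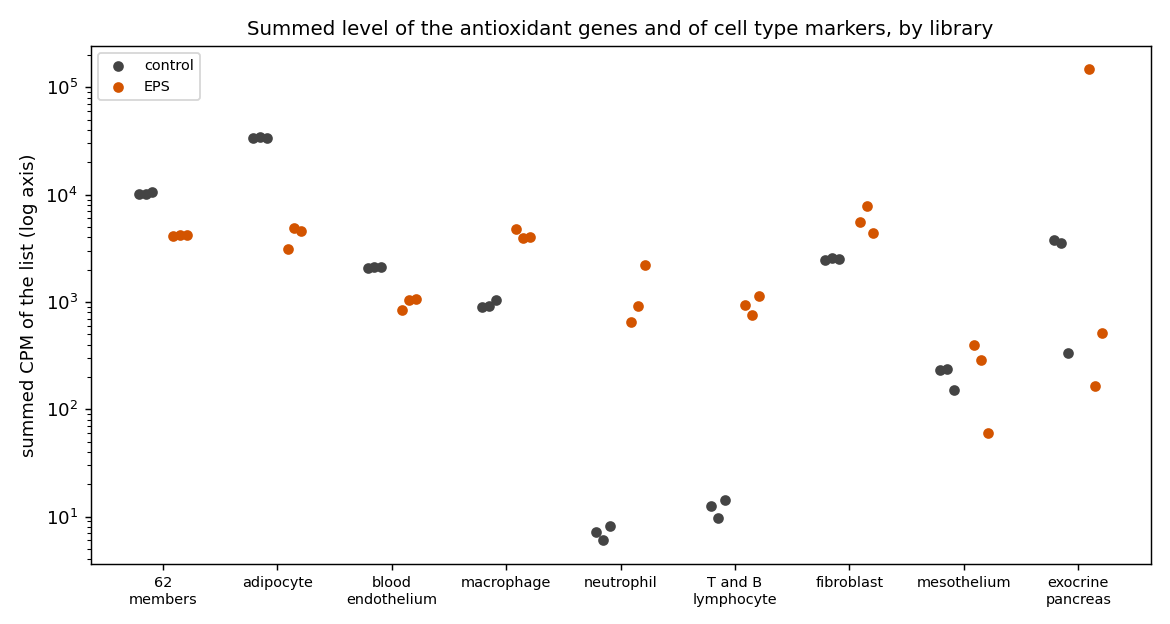
Summed CPM of the 62 antioxidant genes and of the marker genes of 8 cell types in each library, on a log axis. The antioxidant sum drops from 10224 to 10521 CPM in the controls to 4095 to 4224 CPM in EPS, next to a larger drop of the adipocyte sum and rises of the macrophage, neutrophil and lymphocyte sums, and EPS 1 alone has a high pancreas sum of 146808 CPM.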

How the data were processed

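Polyadenylated RNA was prepared with Trizol, oligo-dT beads and random priming, per the labels' protocols, which name no step that marks strand. The authors deposited raw counts of reads per gene symbol for 6 libraries (3 control, 3 EPS), whole numbers with no normalization. The genome build was mm10, per the submitters' processing notes, and no source used here names the aligner, the counter or the handling of reads that match several genes. Groups and replicate numbers were taken from the sample titles.

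Counts were fitted over the whole table with edgeR 4.0.16 (R 4.3.3; filterByExpr, TMM, robust quasi-likelihood F-test, Benjamini-Hochberg adjustment, calls at 0.05), leaving 13980 of 14943 symbols. The script was tested on simulated data in which few genes changed, evenly in both directions. That does not test the scaling where most genes are called, as here. CPM use TMM-scaled library sizes. RPKM divide these by merged exon length in GENCODE vM21 (GRCm38, the assembly that mm10 denotes), which held all 62 antioxidant genes and gave the coordinates. Exons of another gene also overlap 19.1% of the exon bases of Prdx5 (Trmt112), 13.9% of Gstm5, 13.6% of Gstt3, 10.9% of Keap1 and 10.1% of Txnl4a, among others. Standard errors are the log2 fold change over the square root of F. Promoter windows came from RefSeq (GRCm38.p6). Selenocysteine was to be read from protein sequences, which were not used here.

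The antioxidant genes, lists and markers were chosen with earlier results of these data known. Library values are given for Nfe2l2, Keap1 and Nqo1, for up to 4 called genes of lowest adjusted p per role, and for the 8 largest changes in each direction, and pathway lists name up to 3 called genes of lowest adjusted p plus Hmox1, Slc7a11, Bach1 and G6pdx; other named genes were chosen after their values were seen. In all, 17 other settings were run on the counts of calls and on the fold changes of tested genes named here (not on levels, ratios, shares or promoters), covering scaling (RLE, upper quartile, library totals), filters (none; at least 20 counts in 3 libraries), DESeq2 1.42.0, limma-voom (limma 3.58.1), non-robust dispersions, a replicate block, averaged controls 1 and 2, omitted pancreas genes and each library left out; averaging controls 1 and 2 together with leaving out EPS 1 was added after the data were seen, for 18 in all.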

Additional observations from a re-analysis of the deposited data

How the results depend on the processing

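Of the 47 called antioxidant genes, 30 kept their direction and call in all 18 alternatives, and 37 did so in every alternative but library totals. Gsto2 had no value with the filter of at least 20 counts in 3 libraries, which drops it, and counts as not kept. With library totals, 11 antioxidant genes were higher and 27 lower, 13 of the 47 lost the call, of which Txndc17 changed sign (0.049), 18 of the 85 pathway genes were lower, and 2182 of all genes were lower, so that 72.2% of all calls were higher against 51.5% with upper-quartile factors and 52.7% with DESeq2. Uncalled log2 fold changes that changed sign with library totals were Prdx5 (0.10), Txnl1 (0.058), Gstp1 (0.050), Txn1 (0.24), Txndc9 (0.23) and Txndc12 (0.26). Keap1, never called, was at -1.21e-04 without a filter, -0.028 without control 3, -0.085 without EPS 3 and up to 0.12 with another library left out. The cause was not tested. With a library left out, 5 to 8 antioxidant genes were higher and 36 to 41 lower, and 7 of the 47 lost a call in at least 1 such fit. Leaving out 1 library left 2 in its group. The replicate block gave 7 higher and 41 lower antioxidant genes, and the replicate numbers were not shown to pair the libraries: deviations of same-numbered libraries correlated at 0.20, -0.10 and 0.24, and EPS 2 correlated better with control 3 (0.19). At 15419232 to 17684229 reads per library, few reads stood behind Gpx2, Gsta2, Gstm3, Gstm6, Gsto2 and the control levels of Gstp3 and Slc7a11, among others.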
